A study of Mus musculus with 2 samples.

Results

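Neural crest and sympathetic lineage genes were examined in embryonic right atria at E11.5, with wildtype tissue set against Shox2-/- tissue. The set consists of 9 genes, the AP-2 transcription factors Tfap2a, Tfap2b and Tfap2c, the helix-loop-helix factor Ebf3, the crest and glial regulators Sox10 and Foxd3, and the sympathetic genes Phox2a, Dbh and Th. All 9 were found by gene symbol among the 21225 genes of the array table. The genes were chosen by lineage and with their levels and differences on these same arrays already known, so that the values below describe them and test nothing.

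The data are 1 GeneChip array per genotype, hybridized with RNA pooled from 6 embryos of 2 pregnancies. Both pools came from mice crossed into the CD-1 outbred line, and the Shox2-/- embryos were knockouts of the homeodomain factor gene Shox2. The dissected right atria included the sinus venosus myocardium and the venous valves. For the Isl1 signal left in Shox2-/- samples, the study names leftover outflow tract tissue as the likely source. Values are log2, and ratios are given as Shox2-/- minus wildtype. With 1 pool on each side, no difference given here has an error, a replicate or a p-value. The study drew its own P values from an ANOVA on probe-level signals, and these were not used. A lower value in a pool can mean fewer cells of a type or less RNA per cell, and the arrays cannot tell these apart.

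Neural crest cells leave the dorsal neural tube and migrate through the embryo. A cardiac subset reaches the outflow tract and forms the ganglia of the heart, and trunk crest gives rise to sympathetic neurons and the adrenal medulla. AP-2 factors, Foxd3 and Sox10 act in early and migrating crest, while Phox2a acts on the genes of the enzymes of noradrenaline synthesis in sympathetic cells. Th, tyrosine hydroxylase, carries out the rate-limiting step of catecholamine synthesis, and Dbh, dopamine beta-hydroxylase, converts dopamine into noradrenaline. In rodent embryos, catecholamine enzymes are also known from cells within the heart itself before sympathetic nerves grow in. AP-2 factors are not restricted to crest and are active in surface ectoderm and facial mesenchyme as well.

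The targeted gene Shox2 was at 8.43 in the wildtype pool and 7.48 in the Shox2-/- pool, a ratio of −0.95. Whether its probes lie inside the deleted part was not examined. All 9 atrial muscle genes examined lay above background on both arrays, among them the atrial light chain gene Myl7 at 12.75 and 12.80. The pools also differed in other respects, with Xist, the RNA of the inactive X chromosome, at 10.13 in wildtype and 6.60 in Shox2-/- tissue and albumin (Alb) at 10.93 and 9.43. Both were named after their values had been seen, and the part of sex mix or carried-over tissue in the ratios below was not tested. Background was read from 1294 genes of olfactory and vomeronasal receptors. The 95th percentile of their values, called the receptor level here, was 6.78 for wildtype and 6.97 for Shox2-/-. All 9 genes exceeded it in the wildtype pool, as did 70.3% of all genes, and 7 of the 9 exceeded it in the Shox2-/- pool, as did 66.7% of all genes.

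Of the 9 genes, 3 had a ratio at or above 0.35 and 1 had a ratio at or below −0.4, the size thresholds of the study. The study also required a P limit from its ANOVA, so that passing a size threshold alone is not its call. Over all genes, 1.13% were at or above the upper and 1.78% at or below the lower threshold. Since these ratios were known when the genes were chosen, nothing is read from the comparison of the counts. The same shares and the same limit apply to the counts of the gene lists below. Ebf3, Tfap2b and Tfap2a were higher in the Shox2-/- pool, Dbh was lower, and Sox10, Phox2a, Tfap2c and Th lay within 0.07 of 0. Foxd3 was in between with a ratio of 0.21. The median ratio of the 9 genes was 0.058, against 0.021 over all genes, and −0.002 against 0.0018 after subtraction of a smooth trend of the ratio on mean level, called the trend below.

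**Figure D1:**
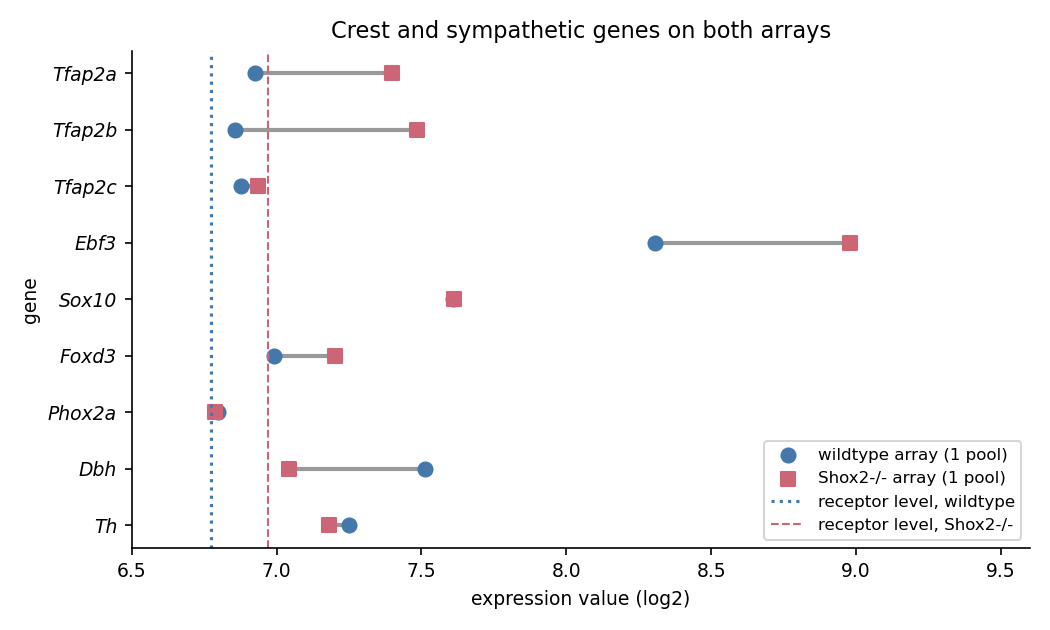
Expression values (log2, horizontal axis) of the 9 genes on the wildtype array (circles) and the Shox2-/- array (squares), with vertical lines at the receptor level of each array and 1 pool of RNA per point. Ebf3 lies well to the right of both lines on both arrays, Tfap2a and Tfap2b start next to the line on the wildtype array and lie above it on the Shox2-/- array, and Dbh runs the other way.

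Tfap2b, which encodes AP-2 beta, a factor of crest, sympathetic neurons and the muscle wall of the ductus arteriosus, was at 6.86 in wildtype and 7.49 in Shox2-/- atria. The ratio of 0.63 corresponds to a 1.55-fold higher signal. The wildtype value lay only 0.080 above the receptor level, so that it can hardly be told from background, and the Shox2-/- value lay 0.51 above it. Tfap2a, which encodes AP-2 alpha, a factor needed for cranial crest and the face, went from 6.93 to 7.40, a ratio of 0.47 or a 1.39-fold higher signal. Its wildtype value too rested close to background, 0.15 above the receptor level, and its Shox2-/- value stood 0.43 above it. Tfap2c, which encodes AP-2 gamma of the trophoblast, germ cells and ectoderm, was at 6.88 and 6.94. It stayed beside the receptor level in both pools, 0.10 above it in wildtype and just below it in Shox2-/- atria, and its ratio of 0.058 turned to −0.048 once the trend was removed.

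Ebf3, a factor of neuronal differentiation that is also made in mesenchyme and muscle, showed the largest ratio of the 9 genes. Its value was 8.31 in wildtype and 8.98 in Shox2-/- atria, a ratio of 0.67 or a 1.59-fold higher signal. Unlike Tfap2a and Tfap2b it was far from background, 1.53 above the receptor level in wildtype and 2.01 above it in Shox2-/- atria. With all 21225 ratios sorted from the top, Ebf3 came at rank 12, Tfap2b at rank 15 and Tfap2a at rank 61.

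Low values drifted upwards on the Shox2-/- array. The receptor genes, which serve as background, had a median ratio of 0.12, and 34 of the 1294 were at or above 0.35. Of these receptor genes, 9 had a ratio as high as Tfap2a, 2 as high as Tfap2b and 1 as high as Ebf3. With the trend removed, the ratio was 0.39 for Tfap2a, 0.55 for Tfap2b and 0.75 for Ebf3. All of them stayed at or above 0.35, with 0.952% of all genes there. Dbh stayed the one gene at or below −0.4, with 1.5% of all genes there. In the tenth of genes nearest in mean level to Tfap2a and Tfap2b, 1.88% were at or above 0.35, and in that of Ebf3 0.754% were.

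**Figure D2:**
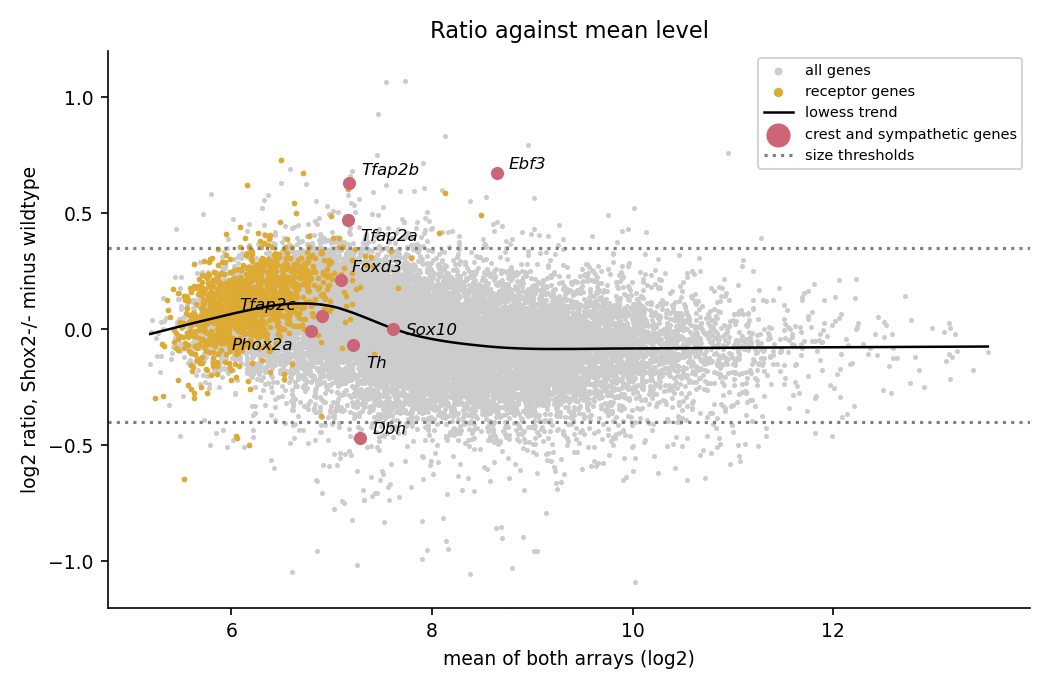
Log2 ratio of Shox2-/- minus wildtype (vertical axis) against the mean of both arrays (log2, horizontal axis) for all genes, with receptor genes, the level-dependent trend and the 9 genes marked and dotted lines at 0.35 and −0.4; 9 of the 21225 genes lie outside the vertical range shown. Tfap2a and Tfap2b stand above the upper line at means of 7.16 and 7.17, Ebf3 stands above it at a mean of 8.64, and Dbh lies below the lower line.

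The paralogs of the AP-2 and Ebf families did not all follow. Of the 5 family members outside the set, none was past a threshold and 3 had a ratio above 0, as did 54.9% of all genes. Ebf2, a close relative of Ebf3, came next with values of 7.33 and 7.67 and a ratio of 0.34, just inside the threshold. Tfap2e was at 7.32 and 7.58, a ratio of 0.26. Tfap2d, at 6.45 and 6.58, lay below the receptor level on both arrays and gives no usable ratio. Ebf1, a factor of B cells and stroma, was at 8.55 and 8.54, and Ebf4 at 7.77 and 7.68. Ebf1 and Ebf3 thus were both measured well above background, with a ratio of −0.0075 for Ebf1, or 0.066 with the trend removed, and of 0.67 for Ebf3. The probe sequences were not used here, and whether probes of one family member also catch another was not tested.

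**Figure D3:**
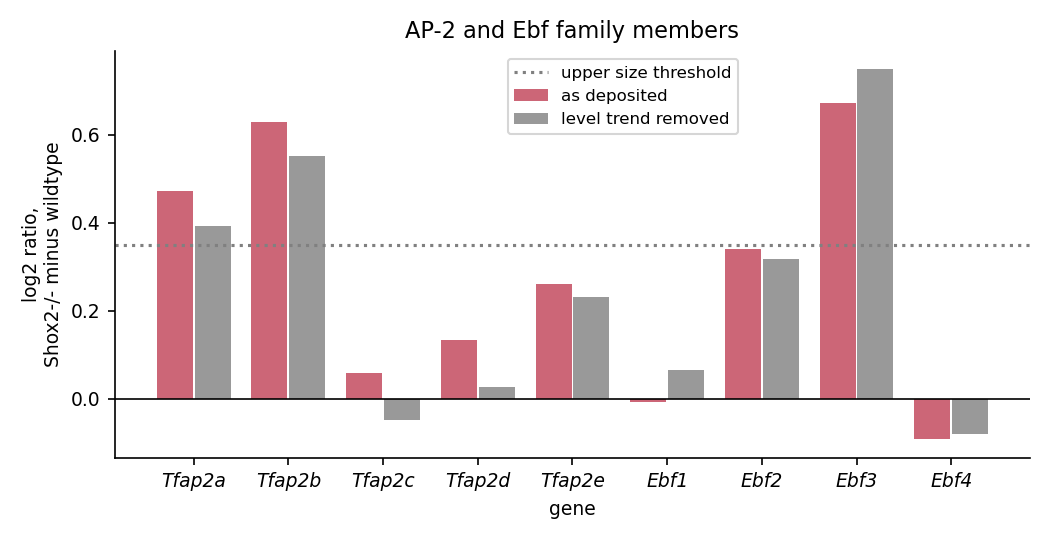
Log2 ratio of Shox2-/- minus wildtype (vertical axis) for 5 AP-2 and 4 Ebf genes, as deposited and with the level-dependent trend removed, with the upper size threshold of 0.35 as a dotted line. Tfap2a, Tfap2b and Ebf3 pass the line in both forms, Ebf2 comes close to it with 0.34 and 0.32, and Ebf1, Ebf4 and Tfap2c lie near 0.

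The promoters of the higher genes are shown because these 3 genes differed in the same direction between the arrays. They are the 250 bases before an annotated start, taken from RefSeq on GRCm38.p6. Windows of 7 of the 9 genes were used, and Sox10 and Tfap2c are named only. Capitals mark motifs that read the same on both strands, namely the AP-2 motif GCCNNNGGC, the cAMP response element TGACGTCA and the AATT palindrome that the study examined in SHOX2 binding. The AATT sites of the study lay in an intron of human ISL1, not in a promoter. No matches overlapped in the windows of these genes.
Tfap2b (chr1:19211804-19212053, plus strand): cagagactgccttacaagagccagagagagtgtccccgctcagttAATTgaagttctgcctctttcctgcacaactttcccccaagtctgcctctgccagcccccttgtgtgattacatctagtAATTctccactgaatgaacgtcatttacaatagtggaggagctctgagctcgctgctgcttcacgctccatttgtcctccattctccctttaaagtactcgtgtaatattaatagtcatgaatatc
Tfap2a (chr13:40734921-40735170, minus strand): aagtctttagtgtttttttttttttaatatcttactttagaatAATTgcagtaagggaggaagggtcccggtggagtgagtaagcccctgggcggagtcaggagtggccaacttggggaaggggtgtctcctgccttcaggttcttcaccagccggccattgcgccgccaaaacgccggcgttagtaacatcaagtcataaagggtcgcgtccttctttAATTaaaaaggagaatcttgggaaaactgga
Ebf3 (chr7:137314446-137314695, minus strand): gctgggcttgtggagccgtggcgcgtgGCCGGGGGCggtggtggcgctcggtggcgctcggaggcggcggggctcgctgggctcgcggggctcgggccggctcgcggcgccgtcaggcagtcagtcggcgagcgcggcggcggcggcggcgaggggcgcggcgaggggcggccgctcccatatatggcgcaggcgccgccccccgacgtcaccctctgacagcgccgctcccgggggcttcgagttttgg

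The Tfap2b window held AATT 205 and 126 bases before the start, and the Tfap2a window 207 and 31 bases before it. A second Tfap2a start, not shown, had none of the motifs in its window. The Ebf3 window had no AATT but 1 AP-2 motif, 223 bases before the start, and was rich in G and C at 80.0%. Of 32851 promoter windows of the same length, 47.1% held at least 1 AATT and 20.5% at least 2, so that these matches are common. An AP-2 motif was found in 13.7% of the windows. These are letters in a window and do not show binding.

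The regulators of crest and its glia showed no shared direction. Sox10, which marks migrating crest and keeps glial precursors in their state, was at 7.61 on both arrays, with a ratio of 0.0015. It lay 0.83 above the receptor level in wildtype and 0.64 above it in Shox2-/- atria, so that its signal was measurable in both pools. Foxd3, which maintains crest progenitors, was at 6.99 and 7.20. Its ratio of 0.21 fell to 0.12 with the trend removed, and its values lay 0.22 above the receptor level in wildtype and 0.23 above it in Shox2-/- atria.

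Among 20 genes of crest specification and migration, 2 were past the upper threshold, Tfap2a and Tfap2b, and none was past the lower one. The median ratio was −0.0016, or 0.031 with the trend removed. Without the 4 genes described above, the median of the remaining 16 was −0.029 as deposited and 0.0055 after removal of the trend. Of these 16, 6 were above and 10 below 0. Their ratios ran from −0.27 for Sox9, a factor of crest and cartilage, to 0.26 for Sox8, a relative of Sox10. Pax3, a crest specifier of the dorsal neural tube, lay near background at 6.84 and 6.91. Ednrb, the endothelin receptor of migrating crest, was at 9.89 and 9.76, and Ets1, a factor of cardiac crest, at 9.04 and 9.03. Several of these genes are also active in endothelium or cushion mesenchyme, and their levels do not show that crest cells were present.

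None of 13 genes of Schwann cells and glial precursors was past a threshold, with a median ratio of 0.066. Erbb3, the neuregulin receptor of glial precursors, was at 7.81 and 7.77, and the brain lipid binding protein gene Fabp7 at 8.72 and 8.68. The highest ratio was that of the neurotrophin receptor gene Ngfr, 0.26, and the lowest that of Cdh19, −0.11, which lay below the receptor level on both arrays. Sox10, Erbb3 and Fabp7 thus all lay within 0.05 of 0.

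The sympathetic genes differed among themselves. Phox2a, the homeodomain factor that drives Dbh and Th in noradrenergic cells, was at 6.80 in wildtype and 6.79 in Shox2-/- atria, a ratio of −0.0075. The wildtype value lay 0.021 above the receptor level and the Shox2-/- value below it, so that Phox2a was at background in both pools and a decrease could not have been detected. Dbh went from 7.51 to 7.04, a ratio of −0.47 or a change in signal of −27.8%. It stood 0.74 above the receptor level in wildtype and 0.074 above it in Shox2-/- atria, which leaves the Shox2-/- value next to background. Th was at 7.25 and 7.18, a ratio of −0.069, and lay 0.48 and 0.21 above the receptor level of these pools. The enzyme genes of the same pathway thus had unlike ratios, and whether they differ beyond the spread between embryos cannot be tested with 1 pool per genotype.

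Sorted from the bottom, Dbh came at rank 203 of all 21225 ratios, with 0.952% of genes below it. In the tenth of genes by mean level that holds Dbh, 1.55% were at or below −0.4. Of the 1294 receptor genes, 2 had a ratio as low, although low values on the whole drifted upwards. With that trend removed the ratio of Dbh was −0.53 and that of Th −0.14. Against a stricter background, the 99th percentile of the receptor genes, 4 of the 9 genes lay above it on each array. The share of all genes above this level was not counted, so that nothing is read from these counts. Ebf3 and Sox10 did so on both, Dbh and Th on the wildtype array only, and Tfap2a and Tfap2b on the Shox2-/- array only.

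The promoters of Dbh and Th are shown because both enzymes belong to one pathway and had different ratios. Windows, source and capitals are those given above.
Dbh (chr2:27165257-27165506, plus strand): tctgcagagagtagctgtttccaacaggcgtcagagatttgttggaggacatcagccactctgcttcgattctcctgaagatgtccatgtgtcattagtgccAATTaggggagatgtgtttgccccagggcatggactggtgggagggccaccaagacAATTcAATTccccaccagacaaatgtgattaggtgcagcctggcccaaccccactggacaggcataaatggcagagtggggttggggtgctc
Th (chr7:142899996-142900245, minus strand): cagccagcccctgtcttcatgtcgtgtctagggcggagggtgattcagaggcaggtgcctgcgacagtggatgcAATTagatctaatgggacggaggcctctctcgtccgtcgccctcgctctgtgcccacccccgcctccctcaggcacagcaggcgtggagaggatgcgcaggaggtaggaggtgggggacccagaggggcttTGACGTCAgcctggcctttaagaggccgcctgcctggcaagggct

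The Dbh window held 3 AATT palindromes, at 148, 92 and 87 bases before the start, the last ones separated by a single base. Of all windows, 8.88% held at least 3. The Th window held 1 AATT at 176 bases and a cAMP response element at 45 bases before the start. That element was found in 1.55% of all windows and, among the 7 genes, also in that of Foxd3, 233 bases before the start. The Phox2a window held none of the motifs.

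Among 15 genes of noradrenaline synthesis, storage and uptake, Dbh was the only one past a threshold. The median ratio of the 15 was −0.080, and 9 were below 0. Ddc, the decarboxylase that acts between Th and Dbh, was at 7.78 and 7.70, and Slc18a2, which loads monoamines into vesicles, at 7.73 and 7.58. Maoa, which breaks down noradrenaline, had the lowest ratio after Dbh, −0.27. Pnmt, which turns noradrenaline into adrenaline, was at 7.46 and 7.63. Slc6a2, the noradrenaline transporter of sympathetic endings, had the highest ratio, 0.24, but lay below the receptor level on both arrays at 6.61 and 6.86.

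Of 9 measured transcription factors of sympathetic neurons, Phox2a included, 1 was past a threshold. It was Isl1, the LIM homeodomain factor, which is also made in sinoatrial cells, with values of 7.95 and 7.53 and a ratio of −0.42. By in situ hybridization and immunostaining, the study found Isl1 lost from the sinoatrial node of Shox2-/- embryos. Its transcripts were kept in the outflow tract. The ratio of Isl1 is therefore not read as one of sympathetic cells. The crest and cardiac factor Hand2 was at 8.83 and 8.93, Gata2 at 8.01 and 8.07, Gata3 at 7.35 and 7.38, and Insm1 at 7.40 and 7.41. Tlx3 had the highest ratio, 0.24.

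Neuronal markers had small ratios, although several lay near background. Among 17 pan-neuronal genes none was past a threshold, and the median ratio was 0.051, or −0.013 with the trend removed. The beta-tubulin gene Tubb3 was at 7.34 and 7.36, and Stmn2 at 7.43 and 7.55. Elavl4, at 6.79 on both arrays, lay next to the receptor level in wildtype and below it in Shox2-/- atria. A decrease of Elavl4 could thus not have been detected. On the Shox2-/- array Prph at 7.02 and Snap25 at 7.10 also lay close to the receptor level of 6.97, which limits what their ratios show. The summed linear values of the list were 3305 on the wildtype and 3318 on the Shox2-/- array. The lowest ratio was that of Uchl1, −0.31, and the highest that of Gap43, 0.21, a gene of growing axons. Of 9 genes listed as cholinergic none was past a threshold as deposited. The list holds Npy, Sst and Nos1 beside Chat, Slc18a3 and Slc5a7, so that its name is loose. Hmx2 came next to the threshold with 0.35 after rounding and reached it with the trend removed, at 0.37. Choline acetyltransferase (Chat), which defines cholinergic neurons, lay below the receptor level at 6.66 and 6.67. Of 11 genes of sensory ganglia none was past a threshold, with ratios from −0.11 for Runx1 to 0.29 for Ntrk2, and the sensory factors Pou4f1 and Neurod1 lay below the receptor level on both arrays. Of 8 melanoblast genes, 3 lay above the receptor level, and the pigment genes Dct, Tyr and Tyrp1 did not. The melanoblast list ran from −0.20 for Kit to 0.26 for Mlana.

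Genes of cues and receptors that guide or sustain crest and sympathetic cells were also measured. None of 14 was past a threshold as deposited. The highest ratios were those of Bdnf, 0.34, and Edn1, 0.34, which encodes the endothelin ligand of cranial and cardiac crest, and Edn1 reached 0.37 with the trend removed. The lowest were Gfra1, −0.29, and Sema3c, −0.23, a semaphorin that draws cardiac crest into the outflow tract. Gdnf was at 6.98 and 7.15, and its receptor Ret at 7.22 and 7.27.

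Markers of arch mesenchyme and surface ectoderm, tissues in which AP-2 factors also act, were counted beside the 3 higher genes. All 18 genes of the crest-derived mesenchyme of the pharyngeal arches had a ratio above 0 as deposited, against 54.9% of all genes, although Dlx4 turned to −0.031 with the trend removed. The median of these arch genes was 0.27, or 0.24 with the trend removed. All 9 genes of the cholinergic list were above 0 as well, as were 10 of 11 sensory ganglion genes and 10 of 20 crest genes. Of the cholinergic list, Chat, Vip and Slc5a7 lay below the receptor level on both arrays. The cholinergic and sensory medians were 0.14 and 0.063, or 0.065 and −0.0001 with the trend removed. Of the 18 arch genes 6 were past the upper threshold, against 1.13% of all genes. They were Prrx1 (0.80), Msx2 (0.60), Alx4 (0.49), Twist1 (0.42), Gsc (0.41) and Dlx2 (0.38). The list was chosen with results of these arrays known, so that the counts test nothing. All 18 lay above the receptor level of the array with their higher value, and their summed linear values were 3594 on the wildtype and 4570 on the Shox2-/- array. Prrx1 and Twist1 are also genes of limb, valve and body wall mesenchyme. With the trend removed 5 arch genes were past the threshold, against 0.952% of all genes, and Dlx2 was at 0.34. The lowest ratio was that of Barx1, 0.030.

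Of 16 genes of surface ectoderm and epidermis, 4 were past the upper threshold, against 1.13% of all genes, and none was past the lower one. They were the basal keratin gene Krt5 (0.56), Grhl3 (0.42), Wnt6 (0.40) and Ovol1 (0.37), of which Ovol1 lay below the receptor level on both arrays. The list was divided, with Epcam at −0.33 and 5 of the 16 genes below 0, a median of 0.11, and summed linear values of 3348 in wildtype and 3558 in Shox2-/- atria. With the trend removed, Krt5 and Grhl3 stayed past the threshold. Trp63, the defining factor of stratified epithelium, was at 7.12 and 7.44, and no gene of either list was at 0, as array values do not reach it. The part of mesenchyme or ectoderm in the higher values of Tfap2a, Tfap2b and Ebf3 was not tested. Of the 9 atrial muscle genes, 1 was past a threshold, Ttn (0.43), the lowest ratio was that of Nppa (−0.12), and the median was 0.041. With the trend removed 2 were past it, Ttn (0.52) and Nkx2-5 (0.35), and the median was 0.097.

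**Figure D4:**
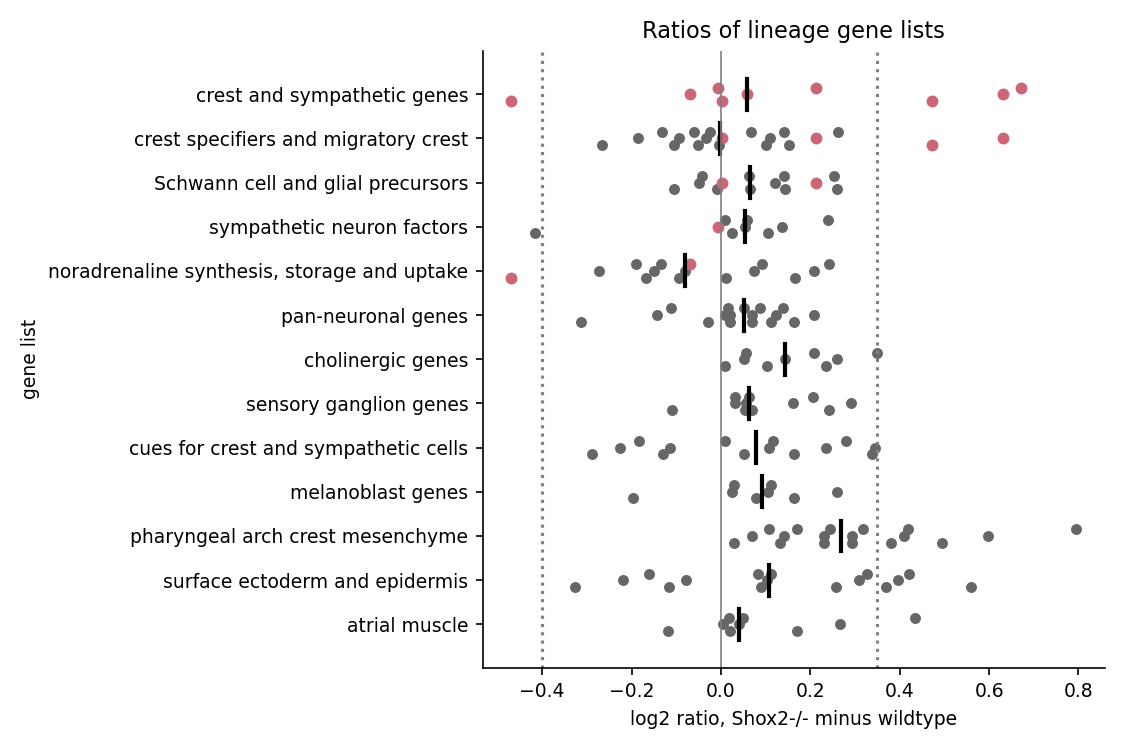
Log2 ratio of Shox2-/- minus wildtype (horizontal axis) for the 9 crest and sympathetic genes and for 12 further gene lists, 1 point per gene, with red points for the 9 genes wherever they occur, black bars at list medians and dotted lines at 0.35 and −0.4. The pharyngeal arch and cholinergic lists lie wholly above 0 in these deposited values, with medians of 0.27 and 0.14. Once the trend is removed, Dlx4 of the first and Chat, Vip and Slc5a7 of the second do not. The glial and pan-neuronal lists stay between the dotted lines.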

How the data were processed

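Embryonic right atria of both genotypes were profiled on GeneChip Mouse Gene 1.0 ST arrays, 1 for each. Probes had been assigned to Entrez genes by a custom CDF (version 14). The gene values came from a model in JMP Genomics 4.0 that separates probe from genotype effects, run by the authors after both arrays had been brought to the same distribution of log signals (quantile normalization). The table they deposited gives a single log2 value per gene for each array. That the scale is log2 was read from its range, 5.09 to 13.59. The background correction and the build are not given in the sources. Precision is limited by the number of arrays.

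Of 21225 genes, 20239 had a symbol, through the platform annotation and RefSeq of GRCm38.p6, and 986 were counted but not named. The ratio was computed for each gene, and no test was run. The 9 genes and all lists were chosen with earlier results of these data known. Named are the 9 genes and, of each list, genes past a threshold, the highest and lowest ratio and defining genes. A few more were picked as examples with their values in view. With 2 arrays each gene has 1 difference, so that no genes of like pattern were sought. Alternatives were arrays centred on their medians, a lowess fit of ratio on mean level subtracted (span 0.3 with 3 iterations), only genes above the receptor level kept, thresholds of 0.4 both ways and of 2-fold, and the 90th and 99th receptor percentiles. Python 3.11.15, numpy 2.4.6, pandas 2.3.3, statsmodels 0.14.6 and matplotlib 3.10.9 were used.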

Additional observations from a re-analysis of the deposited data

How the results depend on the processing

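No paired analysis was possible because each genotype has a single array, which also means that no sample could be dropped. Centring on the array medians, a threshold of 0.4 both ways, keeping only genes above background and removing the trend each left 3 of the 9 genes past the upper threshold and 1 gene past the lower one. So did the trend and the background filter together, a combination chosen after seeing the data. With a 2-fold threshold 0 genes were past either, with 0.00942% of all genes past the upper and 0.066% past the lower one. Over all genes, 0.622% were at or above 0.4. Centring shifted each ratio by only 0.0038, the lower threshold already was −0.4, and the filter removed only Tfap2c, which was past neither threshold. These settings could hardly change the counts and lend them no support. Against the 99th percentile of receptor genes, 4 of the 9 genes lay above background on the wildtype and 4 on the Shox2-/- array. Against the 95th percentile they were 9 and 7, because the background level was set lower there. For the 99th percentile the share of all genes was not counted, and nothing is read from these counts. The median of the melanoblast genes went from 0.092 to −0.015 with the trend removed. No other list median moved by 0.1 or more.

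Signal over background limits most of these genes. Tfap2a, Tfap2b, Tfap2c, Foxd3 and Phox2a lay within 0.22 of the receptor level on the wildtype array. Their ratios may therefore understate a difference in RNA, or overstate a rise, since low values drifted upwards on the Shox2-/- array. Removal of the trend lowered the ratio of each, from 0.63 to 0.55 for Tfap2b and from 0.47 to 0.39 for Tfap2a.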
